A study of Mus musculus with 12 samples.

Results

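Established induced pluripotent stem (iPS) cells were compared with GFP-negative reprogramming colonies, both labelled as derived from a mouse NOTCH1 leukemia. The samples were the 3 arrays titled as Notch-1 iPS cells and the 3 arrays titled as GFP- colonies, 6 of the 12 arrays of the series. Each array gave a log2 level for 41345 probe sets, of which 1 probe set per gene was kept (a single gene symbol, highest mean over all 12 arrays), leaving 22180 genes. The question was what differs between freshly reprogrammed colonies and established lines.

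The series used Affymetrix microarrays at 4 stages, with 3 arrays per stage. The iPS cells are described as established and were grown in mouse embryonic stem cell medium. The GFP- colonies are described as reprogrammed and the GFP+ colonies as partially reprogrammed, all picked from reprogrammed leukemia cells, and the leukemia itself came from spleen. Every group, the leukemia included, carried the genotype R26rtTA;Col1a12lox-4F2A, in which a doxycycline-dependent transactivator at Rosa26 drives a cassette at the Col1a1 locus that encodes Pou5f1, Sox2, Klf4 and Myc. The labels give no age, sex or strain, do not say what GFP marks, and do not say whether the factors were still induced or whether feeder cells were present. Arrays of 1 group are titled as biological repeats, but no label tells if lines, cultures or animals were separate. Each p-value thus rests on array-to-array spread that may be technical in part.

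In reprogramming, forced expression of these 4 transcription factors silences the programme of the starting cell and turns on the embryonic network around Nanog, Pou5f1 and Sox2. Colonies that appear during this process are mixed, while an established line has been passaged until it renews itself without the cassette. Mouse pluripotent cells also pass in and out of a rare state that resembles the cleaving embryo, marked by the Zscan4 genes.

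Before any comparison, the label of each array was set against marker genes. The mean of 8 pluripotency markers was 9.71, 9.67 and 9.64 in iPS cells, against 6.59, 9.40 and 9.78 in GFP- colonies (replicates 1, 2 and 3, the order used throughout), and leukemia arrays lay between 5.24 and 5.64. The array labelled GFP- replicate 1 thus lacked the pluripotent profile of its group. Its level of Nanog, the transcription factor that marks naive pluripotency, was 5.07, against 11.35 and 11.85 on the other GFP- arrays, and its mean of 4 keratinocyte markers was 10.42, against 6.54 and 4.99. Across all genes it correlated at 0.907 to 0.908 with iPS arrays, whereas the other GFP- arrays correlated at 0.966 to 0.971 with them. The iPS arrays correlated at 0.995 among themselves. GFP- replicate 1 correlated at 0.976, 0.950 and 0.962 with GFP+ arrays, against 0.933 and 0.887 with GFP- replicates 2 and 3. Its keratinocyte mean lay within the GFP+ range of 9.95 to 10.70. Its pluripotency mean lay below the GFP+ range of 7.54 to 9.65. GFP- replicate 2 correlated at 0.981 with GFP+ replicate 2, against 0.970 with GFP- replicate 3. Whether any array was mislabelled was not tested. The median SD per gene was 0.0998 in iPS cells and 0.245 in GFP- colonies. Y-linked genes also separated arrays within groups. Eif2s3y, a translation factor subunit encoded on the Y chromosome, read 7.69, 7.24 and 7.01 in iPS cells, against 8.56, 3.84 and 3.21 in GFP- colonies, with 8.53, 7.49 and 4.18 in GFP+ colonies and 4.40, 3.86 and 3.57 in leukemia. The GFP- arrays 2 and 3 were therefore at the leukemia level of this gene, while GFP- replicate 1 and all iPS arrays were above it. All iPS arrays thus had more of this Y-linked RNA than the leukemia arrays, and the labels do not say whether those leukemia arrays came from the animal that gave the iPS cells. Results are given over all 6 arrays, and many also without GFP- replicate 1.

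Genes called in the comparison were mostly higher in iPS cells, and the largest differences were in extracellular matrix genes and in the Zscan4 family. With limma and Benjamini-Hochberg adjustment over 22180 genes, 144 genes were higher in iPS cells (0.649% of genes tested) and 46 were lower (0.207%) at an adjusted p under 0.05, 190 in all (0.857%). Of these, 107 were higher and 29 were lower by at least 2-fold. The groups did not overlap for any called gene, but non-overlap was common: all iPS arrays lay above all GFP- arrays for 3397 genes (15.3%) and below them for 2623 genes (11.8%). The median difference over all genes was -0.02 on the log2 scale, iPS minus GFP-. With GFP- replicate 1 left out, limma called 939 genes higher (4.23%) and 623 lower (2.81%), among them all 190 calls of the 6 arrays. Leaving out GFP- replicate 2 left 37 calls and leaving out GFP- replicate 3 gave 584. Leaving out any 1 iPS array left 0 calls in limma, with smallest adjusted p between 0.100 and 0.123, and 2098 to 2217 genes at an unadjusted p under 0.05, against 3598 with all 6 arrays. In a limma fit of all 12 arrays, 943 genes were called, including 175 of the 190.

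**Figure D1:**
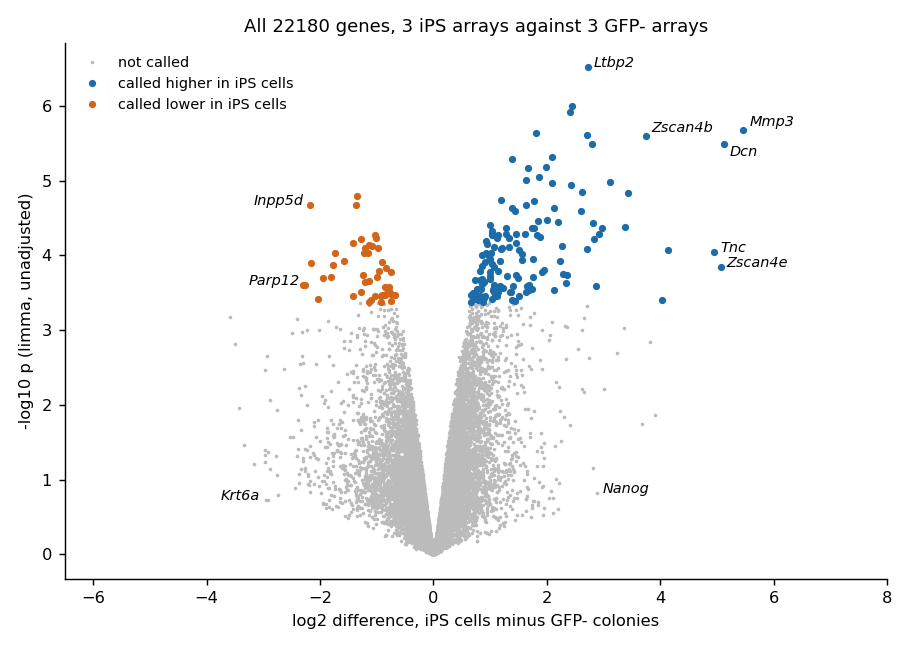
Each point is 1 of 22180 genes, with the log2 difference (iPS cells minus GFP- colonies) on the x axis and -log10 of the unadjusted limma p on the y axis, and blue and orange points were called higher and lower at an adjusted p under 0.05. Mmp3, Dcn, Tnc and Zscan4e lie farthest to the right near a difference of 5, while Nanog (2.88) and Krt6a (-2.95) differ widely in mean but lie low, with GFP- arrays that differ widely among themselves.

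Fibroblast and extracellular matrix genes were higher in iPS cells. Of 38 measured members of a fibroblast list, 11 rose and 0 fell, and 27 had all iPS arrays above all GFP- arrays. Over all genes, 0.649% were called higher, 0.207% were called lower and 15.3% had all iPS arrays above. The median difference of the list was 1.30, beside -0.02 over all genes. The list mean was 7.93 ± 0.04 in iPS cells and 6.50 ± 0.39 in GFP- colonies (SD, n = 3 each), and it was 6.99, 6.48 and 7.19 in GFP+ colonies and 5.96, 5.88 and 5.90 in leukemia. The iPS arrays thus had the highest list mean of any array in the series. In an RNA measurement of a mixed culture, a larger share of cells of a type and more RNA per cell cannot be told apart.

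Dcn, which encodes the small leucine-rich proteoglycan decorin that binds collagen fibrils, read 10.73, 10.64 and 10.81 in iPS cells, against 5.64, 6.25 and 4.93 in GFP- colonies. Every GFP- array lay far below every iPS array, and the difference was 5.12 ± 0.32 (SE), or 34.7-fold (limma adjusted p = 0.00807). Tnc encodes tenascin C, a matrix glycoprotein of developing and wounded tissue, and read 11.01, 10.98 and 10.87 in iPS cells, against 7.31, 5.59 and 5.10 in GFP- colonies. The GFP- replicate 1 array was the highest of its group, still far below iPS cells, and the difference was 4.95 ± 0.55 (limma adjusted p = 0.0268). Prrx1, a homeobox transcription factor of limb and craniofacial mesenchyme, read 8.39, 8.25 and 8.40 in iPS cells, against 6.26, 5.58 and 5.41 in GFP- colonies, a difference of 2.60 ± 0.23 (limma adjusted p = 0.019). Pdgfra, the platelet-derived growth factor receptor of mesenchyme and of primitive endoderm, read 6.66, 6.95 and 7.16 in iPS cells, against 5.44, 5.84 and 5.38 in GFP- colonies, which gave 1.37 ± 0.19 (limma adjusted p = 0.0452).

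The other called members of the list, named after their values were seen, were the collagen genes Col1a2 and Col6a3, the proteoglycan gene Lum, the matrix adaptor Dpt, the collagen crosslinking enzyme Loxl1, the gelatinase Mmp2 and the intermediate filament gene Vim, with differences from 1.14 (Col6a3) to 2.40 (Dpt). Vim read 10.19, 10.01 and 10.17 in iPS cells, against 8.37, 9.11 and 8.74 in GFP- colonies, but a second Vim probe set differed by 0.07 only (limma unadjusted p = 0.526). Members that did not pass included Col1a1, at 8.82, 8.41 and 8.57 in iPS cells, against 7.54, 6.59 and 6.92 in GFP- colonies (difference 1.59 ± 0.26, limma adjusted p = 0.0624), and Col3a1, at 6.26, 6.29 and 6.58 in iPS cells, against 6.09, 5.65 and 5.95 in GFP- colonies (difference 0.48 ± 0.16, limma adjusted p = 0.224). The cassette lies at the Col1a1 locus, and whether it affects that probe set was not tested. Fn1, the fibronectin gene, read 11.67, 11.67 and 11.64 in iPS cells, against 10.04, 11.68 and 11.86 in GFP- colonies. GFP- replicate 2 was thus nearly equal to the iPS arrays, with GFP- replicate 3 above and GFP- replicate 1 below them. Without GFP- replicate 1 the difference was -0.11 ± 0.11 (limma adjusted p = 0.56).

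The count of called fibroblast genes depended on single arrays. It was 25 without GFP- replicate 1, 4 without GFP- replicate 2, 13 without GFP- replicate 3 and 0 without any 1 iPS array, while the median difference stayed between 1.05 and 1.38. In the fit of all 12 arrays 22 members were called higher. Of all 22180 genes, 939, 27 and 378 were called higher without GFP- replicates 1, 2 and 3, and 651 in the fit of all 12 arrays. Over 8 fibroblast markers (Col1a1, Col1a2, Col3a1, Dcn, Lum, Thy1, Postn and Pdgfrb), 3 were called higher, and their mean was 7.65, 7.55 and 7.67 in iPS cells, against 6.21, 5.92 and 5.53 in GFP- colonies. Array levels have no zero point, so no marker can be said to be absent. Whether RNA of fibroblasts in the culture takes part in these differences was not tested.

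**Figure D2:**
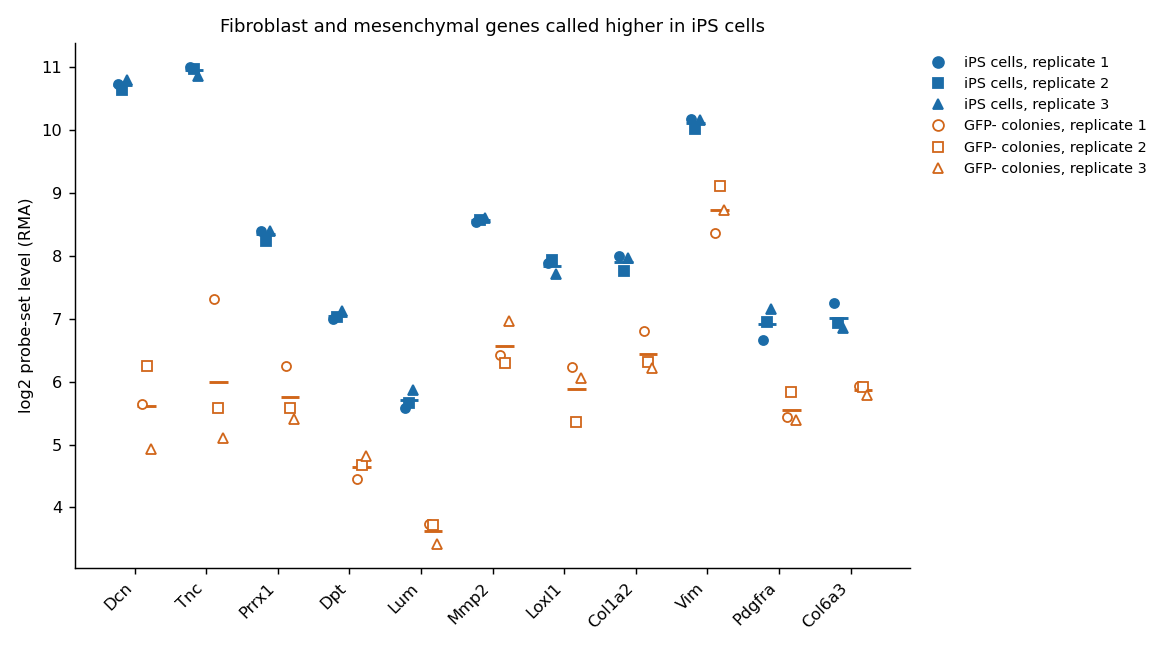
The 11 fibroblast and mesenchymal genes called higher in iPS cells are shown with the log2 level on the y axis. Filled blue symbols are the 3 iPS arrays and open orange symbols the 3 GFP- arrays, with bars at group means, and every iPS array lies above every GFP- array for each gene.

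The largest increase of all was in a matrix protease. Mmp3 encodes stromelysin-1, which cleaves proteoglycans, fibronectin and other matrix proteins and activates other metalloproteinases, and it read 11.05, 11.12 and 11.06 in iPS cells, against 6.34, 5.05 and 5.45 in GFP- colonies. The iPS arrays were nearly equal and far above all GFP- arrays, and the difference was 5.47 ± 0.32, or 44.2-fold (limma adjusted p = 0.00792). On GFP+ arrays it read 5.96, 6.06 and 9.74. Mmp10, the closely related stromelysin-2 gene on the same chromosome, also rose. Named after its values were seen, it read 7.77, 7.50 and 7.64 in iPS cells, against 6.40, 6.22 and 5.95 in GFP- colonies and differed by 1.45 ± 0.15 (limma adjusted p = 0.0257). The promoter windows of both genes (RefSeq, GRCm38.p6, 300 bases around the start site) are shown because AP-1 sites are a classical feature of stromelysin promoters. Capitals mark the letters TGAGTCA, the AP-1 motif, which begins 46 bases before the start site in Mmp3 and 63 bases before it in Mmp10.
Mmp3 (chr9:7445572-7445871, plus strand): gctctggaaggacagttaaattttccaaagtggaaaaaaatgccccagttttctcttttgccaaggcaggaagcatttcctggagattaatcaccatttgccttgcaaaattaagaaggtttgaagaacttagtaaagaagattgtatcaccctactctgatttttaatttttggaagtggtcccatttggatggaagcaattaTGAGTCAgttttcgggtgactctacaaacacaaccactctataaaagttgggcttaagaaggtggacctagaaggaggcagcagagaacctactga
Mmp10 (chr9:7502092-7502391, plus strand): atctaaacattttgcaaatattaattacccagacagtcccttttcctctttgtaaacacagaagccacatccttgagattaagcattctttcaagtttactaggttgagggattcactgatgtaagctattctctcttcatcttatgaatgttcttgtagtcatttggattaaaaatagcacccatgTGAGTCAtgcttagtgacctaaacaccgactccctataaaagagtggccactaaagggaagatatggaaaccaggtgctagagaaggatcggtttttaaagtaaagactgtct
Searched on both strands, TGAGTCA was in 5.2% of all 32851 RefSeq promoter windows, in 1.8% of the 111 windows of genes called higher (those of Mmp3 and Mmp10 only) and in 4.88% of the 41 windows of genes called lower. The motif was thus no more frequent among the windows of genes called higher than among all windows.

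Secreted factors and matrix-bound regulators of the TGF-beta family accompanied the matrix genes. Of 37 measured genes of the TGF-beta, BMP and Nodal pathways, 3 rose and 0 fell, 12 had all iPS arrays above all GFP- arrays, and the median difference was 0.24. Over all genes, 0.649% were called higher and 15.3% had all iPS arrays above. Ltbp2, which encodes a latent TGF-beta binding protein of elastic fibres, read 8.97, 9.02 and 8.88 in iPS cells, against 6.09, 6.36 and 6.23 in GFP- colonies. Both groups were tight, and this gene had the smallest adjusted p of all (difference 2.73 ± 0.12, limma adjusted p = 0.00673). Inhba encodes the activin A subunit and read 8.45, 7.74 and 8.34 in iPS cells, against 6.08, 5.16 and 4.71 in GFP- colonies, a difference of 2.86 ± 0.38 (limma adjusted p = 0.0428). Id1, an inhibitor of basic helix-loop-helix factors and a target of BMP signalling in mouse embryonic stem cells, read 8.11, 8.30 and 8.53 in iPS cells, against 7.28, 7.15 and 7.41 in GFP- colonies, with a difference of 1.03 ± 0.15 (limma adjusted p = 0.0478). In the fit without GFP- replicate 1, 8 members of this list were called higher, beside 4.23% of all genes, and the median was 0.38. Prrx1 and Id1 were also the called members among 18 regulators of the epithelial-mesenchymal transition, where 0 fell and the median difference was 0.55. In the fit of 5 arrays 7 of these regulators were called higher.

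Few genes of the FGF and Wnt pathways passed the test over all 6 arrays. Among 26 genes of FGF and ERK signalling, 1 rose and 1 fell, beside 0.649% and 0.207% of all genes, and 2 were called higher and 3 lower without GFP- replicate 1. Fgf7, a growth factor secreted by mesenchyme, read 6.93, 6.89 and 6.90 in iPS cells, against 5.71, 5.30 and 5.85 in GFP- colonies, a difference of 1.29 ± 0.16 (limma adjusted p = 0.0384). Fgfr2, whose epithelial isoform is the receptor for Fgf7, read 5.80, 5.60 and 5.81 in iPS cells, against 7.32, 8.03 and 7.25 in GFP- colonies, a difference of -1.80 ± 0.23 (limma adjusted p = 0.0387), and it was also the 1 called member of 15 trophoblast genes. The probe set does not tell the isoforms of Fgfr2 apart. Neither gene overlapped between the groups, although the Fgfr2 call was lost in the fit of all 12 arrays (adjusted p = 0.0610). Of 42 Wnt pathway genes 1 rose: Fzd5, a Frizzled receptor, read 7.88, 7.79 and 7.62 in iPS cells, against 6.80, 6.82 and 6.71 in GFP- colonies, a difference of 0.99 ± 0.11 (limma adjusted p = 0.0297). Without GFP- replicate 1, 7 Wnt pathway genes were called higher and 1 lower, beside 4.23% and 2.81% of all genes. Lama1 encodes the laminin alpha 1 chain of the embryonic basement membrane and read 9.40, 9.29 and 9.36 in iPS cells, against 6.35, 6.92 and 6.38 in GFP- colonies, a difference of 2.80 ± 0.18 (limma adjusted p = 0.00807). Lama1 and Pdgfra were the called members of 17 primitive endoderm genes, whose median difference was -0.00.

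Zscan4 and other genes of the 2-cell-like state were also higher in iPS cells. Of 16 measured members of the list, 6 rose and 0 fell, 10 had all iPS arrays above all GFP- arrays, and the median difference was 1.69. Over all genes, 0.649% were called higher, 0.207% were called lower and 15.3% had all iPS arrays above. The list mean was 7.18 ± 0.10 in iPS cells and 5.21 ± 0.66 in GFP- colonies (SD, n = 3 each), and it lay between 4.80 and 5.05 in GFP+ colonies and between 4.86 and 4.92 in leukemia. The called members were Zscan4a to Zscan4e, which encode zinc finger and SCAN domain proteins linked to telomere lengthening in mouse embryonic stem cells, and AF067061, a transcript of the same state.

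Zscan4e read 9.67, 9.90 and 9.60 in iPS cells, against 3.95, 3.89 and 6.14 in GFP- colonies. The iPS arrays were close together, and GFP- replicate 3 was the highest of its group. The difference was 5.06 ± 0.61 (limma adjusted p = 0.0338). Zscan4a read 10.91, 10.84 and 11.01 in iPS cells, against 6.08, 6.31 and 8.30 in GFP- colonies, with GFP- replicate 3 again highest of its group, and differed by 4.02 ± 0.58 (limma adjusted p = 0.0483). Zscan4b read 8.38, 8.69 and 8.42 in iPS cells, against 4.64, 4.40 and 5.20 in GFP- colonies, a difference of 3.75 ± 0.23 or 13.4-fold (limma adjusted p = 0.00792). Named after their values were seen, Zscan4d differed by 2.43 ± 0.19, Zscan4c by 2.13 ± 0.29 and AF067061 by 3.43 ± 0.28. GFP- replicate 3 was the highest GFP- array for all 6 of these genes.

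The other 10 members did not pass. Usp17lc, a deubiquitinase gene of the same state, was at 8.64, 8.53 and 8.61 in iPS cells, against 3.18, 3.37 and 7.51 in GFP- colonies, so that GFP- replicate 3 stood near iPS cells and the other GFP- arrays far below (difference 3.90 ± 1.14, limma adjusted p = 0.185). The differences were 0.04 ± 0.21 for Tcstv1 and 0.29 ± 0.21 for Tcstv3, further genes of that state. The count of calls was 8 without GFP- replicate 1, 2 without GFP- replicate 2, 9 without GFP- replicate 3 and 0 without any 1 iPS array. In the fit of all 12 arrays 10 were called higher. Of all 22180 genes, 939, 27 and 378 were called higher without GFP- replicates 1, 2 and 3, and 651 in the fit of all 12 arrays.

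Promoter windows of Zscan4b, Zscan4c and Zscan4d (RefSeq, GRCm38.p6) are shown because these genes are near-identical copies on chromosome 7 that moved together, and probe sets of such copies can read each other's transcripts. Zscan4a and Zscan4e are named only. Capitals mark the letters TATAAA, a core promoter box at which transcription complexes assemble, which begins 31 bases before the start site in Zscan4b, 54 bases before it in Zscan4c and 65 bases before it in Zscan4d.
Zscan4b (chr7:10905001-10905300, minus strand): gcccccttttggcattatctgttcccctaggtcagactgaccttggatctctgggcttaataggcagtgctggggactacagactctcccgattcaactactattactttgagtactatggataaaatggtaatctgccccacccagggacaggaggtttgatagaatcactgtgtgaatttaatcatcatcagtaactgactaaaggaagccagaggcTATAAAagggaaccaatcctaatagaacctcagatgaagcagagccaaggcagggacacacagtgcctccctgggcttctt
Zscan4c (chr7:11005495-11005794, plus strand): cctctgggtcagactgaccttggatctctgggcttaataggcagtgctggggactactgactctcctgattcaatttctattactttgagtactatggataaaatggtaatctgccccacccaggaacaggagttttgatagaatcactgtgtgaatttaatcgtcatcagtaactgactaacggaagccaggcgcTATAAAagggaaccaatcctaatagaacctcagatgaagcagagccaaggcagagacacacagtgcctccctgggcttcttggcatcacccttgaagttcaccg
Zscan4d (chr7:11166099-11166398, minus strand): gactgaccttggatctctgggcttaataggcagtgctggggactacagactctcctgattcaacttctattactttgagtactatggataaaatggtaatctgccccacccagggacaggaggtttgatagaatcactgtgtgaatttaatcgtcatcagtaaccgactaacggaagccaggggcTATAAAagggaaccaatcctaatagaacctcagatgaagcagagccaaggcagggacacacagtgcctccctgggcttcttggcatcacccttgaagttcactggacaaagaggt
In pairwise alignment the windows of Zscan4b and Zscan4c were identical at 95.3% of 277 aligned bases, those of Zscan4b and Zscan4d at 97.7% of 266, and those of Zscan4c and Zscan4d at 97.2% of 289. Transcript and probe sequences were not compared, so whether these probe sets read each other's transcripts was not tested, and the values of single copies are uncertain. Searched on both strands, TATAAA was in 13.6% of all windows, in 17.1% of windows of genes called higher and in 2.44% of windows of genes called lower.

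**Figure D3:**
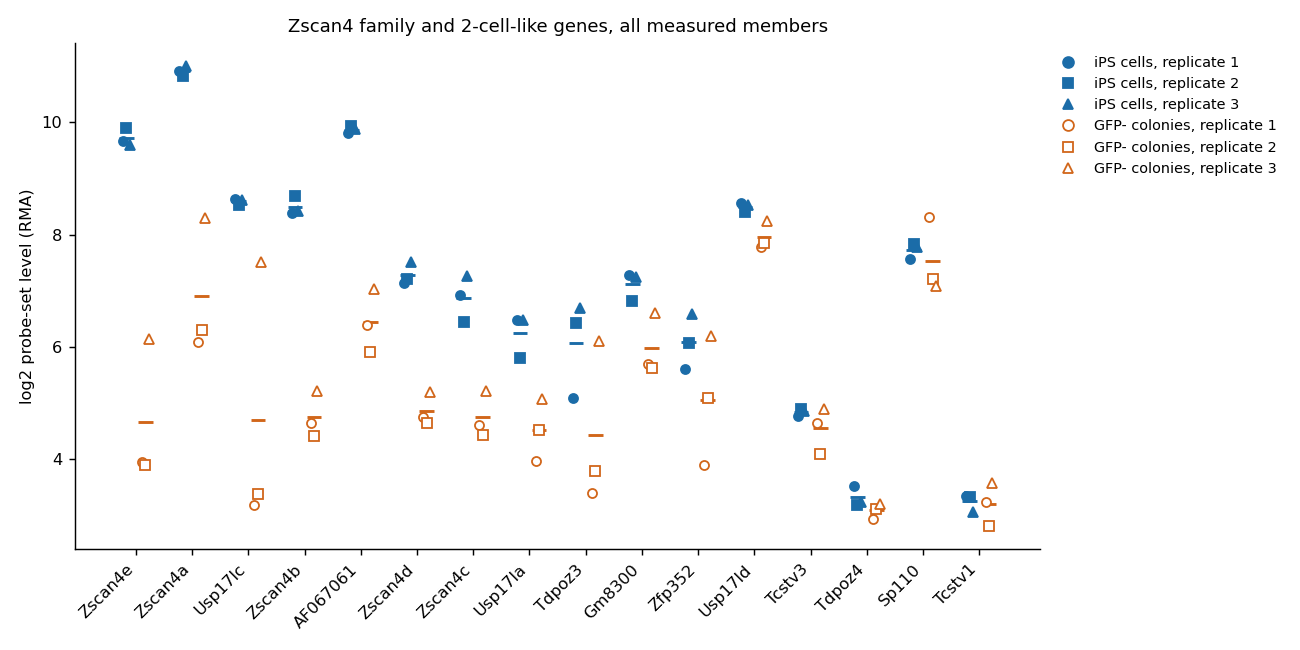
All 16 measured 2-cell-like genes are ordered by difference, with the log2 level on the y axis, filled blue symbols for the 3 iPS arrays, open orange symbols for the 3 GFP- arrays and bars at group means. GFP- replicate 3 (open triangle) is the highest of its group for the Zscan4 genes, and for Usp17lc and Tdpoz3 it lies near iPS cells.

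Other large increases belonged to no list. Spink1 encodes a secreted trypsin inhibitor and read 10.79, 10.73 and 10.75 in iPS cells, against 5.64, 6.70 and 7.54 in GFP- colonies, which gave 4.13 ± 0.45 (limma adjusted p = 0.0262). Slc13a5 encodes a sodium-coupled citrate transporter and read 8.21, 8.16 and 8.22 in iPS cells, against 4.61, 5.09 and 5.55 in GFP- colonies, a difference of 3.11 ± 0.24 (limma adjusted p = 0.0139). The iPS arrays of both genes were nearly equal, while the GFP- arrays spread widely. Pcdh7, a protocadherin gene, read 7.81, 7.48 and 7.79 in iPS cells, against 5.32, 4.22 and 4.63 in GFP- colonies and differed by 2.97 ± 0.29 (limma adjusted p = 0.0239). Rhox13, a homeobox gene of the X-linked reproductive cluster that is expressed in germ cells, read 7.18, 7.71 and 8.08 in iPS cells, against 4.34, 4.75 and 5.12 in GFP- colonies and differed by 2.92 ± 0.29 (limma adjusted p = 0.0239). In the other groups Rhox13 read 4.69, 4.89 and 4.36 in GFP+ colonies and 4.45, 4.58 and 4.63 in leukemia, so that each of those arrays lay below every iPS array.

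A microRNA gene of early embryos was among the called genes, named after its values were seen. Mir290a is the first hairpin of the miR-290 cluster, the most abundant microRNA family of mouse embryonic stem cells. Its probe set read 5.75, 5.85 and 6.08 in iPS cells, against 4.06, 3.88 and 4.68 in GFP- colonies, a difference of 1.69 ± 0.23 (limma adjusted p = 0.0445). The mature sequences of the hairpin (RefSeq, GRCm38.p6, plus strand) are shown because the arms differ in seed, bases 2 to 8, which is given in capitals and is CUCAAAC in the 5p arm and AAGUGCC in the 3p arm.
miR-290a-5p (chr7:3218639-3218660): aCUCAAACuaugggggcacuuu
miR-290a-3p (chr7:3218674-3218697): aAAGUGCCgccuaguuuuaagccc
The probe set reads the hairpin and cannot tell the arms apart.

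Plagl1, an imprinted gene for a zinc finger factor that restrains growth, read 7.26, 7.35 and 7.52 in iPS cells, against 6.11, 6.43 and 6.45 in GFP- colonies, a difference of 1.05 ± 0.14 (limma adjusted p = 0.0452), and a second probe set differed by 0.53. With Dcn, which is imprinted in mouse placenta, it was the called pair among 28 imprinted genes outside the Dlk1-Dio3 cluster, beside 0.649% of all genes called higher. In that list 0 fell and the median difference was 0.12.

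Genes lower in iPS cells included signalling and membrane genes of diverse roles. Parp12, an interferon-induced ADP-ribosyltransferase gene, read 7.95, 7.98 and 7.95 in iPS cells, against 10.92, 9.84 and 9.89 in GFP- colonies. The iPS arrays were nearly equal and GFP- replicate 1 was the highest array of its group (difference -2.26 ± 0.30, 4.78-fold lower, limma adjusted p = 0.0427). Inpp5d encodes the inositol phosphatase SHIP1, best known in blood cells, and read 6.97, 6.87 and 7.03 in iPS cells, against 9.04, 8.85 and 9.52 in GFP- colonies, a difference of -2.18 ± 0.19 (limma adjusted p = 0.0182). Slc40a1 encodes ferroportin, the cellular iron exporter, and read 5.53, 5.38 and 5.66 in iPS cells, against 7.65, 8.18 and 7.20 in GFP- colonies, a difference of -2.15 ± 0.25 (limma adjusted p = 0.0313).

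Ptpn13, a non-receptor tyrosine phosphatase gene, read 6.44, 6.31 and 6.55 in iPS cells, against 9.13, 8.27 and 8.02 in GFP- colonies and differed by -2.04 ± 0.29 (limma adjusted p = 0.0478). Arhgef3, which encodes an exchange factor for RhoA, read 6.72, 6.86 and 6.87 in iPS cells, against 8.23, 8.23 and 8.04 in GFP- colonies and differed by -1.35 ± 0.11 (limma adjusted p = 0.0172). Sort1, the gene of the sorting receptor sortilin, read 6.60, 6.36 and 6.43 in iPS cells, against 7.80, 7.74 and 7.93 in GFP- colonies and differed by -1.36 ± 0.12 (limma adjusted p = 0.0182), but a second Sort1 probe set differed by -0.04 only (limma unadjusted p = 0.714). Ddit3, which encodes the stress-induced factor CHOP, read 7.51, 7.24 and 7.67 in iPS cells, against 8.59, 8.50 and 8.40 in GFP- colonies and differed by -1.02 ± 0.14 (limma adjusted p = 0.0461). It was the 1 called member of 21 genes of the ATF4 stress response, beside 0.207% of all genes called lower. The median difference of that list was 0.00. Ssxb6, Dock11 and Enox2, the other decreases among the largest 10, are X-linked and are described with that chromosome.

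A list of interferon-stimulated genes was on balance lower in iPS cells than in GFP- colonies, but no member passed the test over all 6 arrays. The called gene Parp12, also interferon-induced, is not a member of this list. Of 25 measured members, 0 were called in limma, 16 had all iPS arrays below all GFP- arrays (11.8% of all genes), and the median difference was -1.15. The list mean was 6.39 ± 0.02 in iPS cells and 7.54 ± 0.81 in GFP- colonies (SD, n = 3 each), with GFP- replicate 1 highest at 8.42. Without GFP- replicate 1 the median difference was -0.72 and 6 members were called lower, beside 2.81% of all genes. Among those 6, Oasl2, an oligoadenylate synthetase-like gene named after its values were seen, read 5.44, 5.23 and 5.21 in iPS cells, against 9.94, 7.58 and 9.11 in GFP- colonies and differed by -3.05 ± 0.42 without that array (limma adjusted p = 0.0164). Of 15 antigen presentation genes 0 were called and all 15 differences were below 0, whereas 47.7% of all genes had a difference above 0. The list median was -0.97, or -0.37 without GFP- replicate 1. All iPS arrays lay below all GFP- arrays for 7 of these genes (11.8% of all genes), and 2 were called lower without GFP- replicate 1 (2.81% of all genes). The means of 5 macrophage markers (6.85, 6.93 and 6.85 in iPS cells, against 7.62, 8.38 and 6.63 in GFP- colonies) and of 3 pan-blood markers (7.12, 7.41 and 7.20 in iPS cells, against 7.75, 7.41 and 7.04 in GFP- colonies) were lowest in GFP- replicate 3 among the GFP- arrays. The part of such cells in the interferon values was not tested.

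Pluripotency genes did not pass the test over all 6 arrays, and the means of both lists of them were lowest on GFP- replicate 1. Of 15 naive pluripotency genes 0 were called in limma and 6 had all iPS arrays above all GFP- arrays, beside 15.3% of all genes. The median difference was 1.28 over 6 arrays and 0.54 without GFP- replicate 1. Nanog read 12.32, 12.39 and 12.21 in iPS cells, against 5.07, 11.35 and 11.85 in GFP- colonies, a difference of 2.88 ± 1.76 (limma adjusted p = 0.463), and 0.71 ± 0.17 without that array (limma adjusted p = 0.0624). Esrrb, an orphan nuclear receptor gene of the naive network, read 7.31, 6.66 and 7.40 in iPS cells, against 4.94, 6.80 and 7.19 in GFP- colonies, with 2 iPS arrays above and 1 below GFP- replicates 2 and 3 (difference 0.81 ± 0.60, limma adjusted p = 0.534).

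Zfp42, the naive marker Rex1, went the other way on the arrays that carried it. It read 9.34, 9.33 and 9.22 in iPS cells, against 6.26, 10.31 and 10.90 in GFP- colonies, so that GFP- replicates 2 and 3 lay above every iPS array. The difference was 0.14 ± 1.18 over 6 arrays (limma adjusted p = 0.964) and -1.31 ± 0.18 without GFP- replicate 1 (limma adjusted p = 0.0175). In that fit of 5 arrays, Tfcp2l1, Tbx3, Nr5a2 and Sall4, transcription factors of the same network named after their values were seen, were the 4 naive genes called higher. Zfp42 was the 1 called lower. Of all genes, 4.23% were called higher and 2.81% lower in that fit. Tbx3 read 9.82, 9.90 and 9.82 in iPS cells, against 6.72, 7.40 and 8.35 in GFP- colonies and differed by 1.97 ± 0.27 there (limma adjusted p = 0.0164).

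Of 22 further pluripotency genes 0 were called over 6 arrays, and the median difference was 0.76, or -0.08 without GFP- replicate 1. Tdgf1, a Nodal co-receptor gene, read 12.34, 12.30 and 12.23 in iPS cells, against 9.75, 11.82 and 12.03 in GFP- colonies (difference 1.09 ± 0.60, limma adjusted p = 0.421). Lin28a, which encodes a blocker of let-7 processing, read 9.17, 9.15 and 9.13 in iPS cells, against 7.14, 9.28 and 8.80 in GFP- colonies (difference 0.74 ± 0.53, limma adjusted p = 0.523). Dppa5a, an RNA-binding protein gene of pluripotent cells, read 6.13, 6.25 and 5.93 in iPS cells, against 5.46, 5.87 and 6.42 in GFP- colonies (difference 0.18 ± 0.25, limma adjusted p = 0.741). For each of these genes GFP- replicate 1 was the lowest array, and for Lin28a and Dppa5a another GFP- array lay above every iPS array.

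Epiblast genes, which mark the state that follows the naive one, also showed no call over 6 arrays (0 of 14 in limma). Without GFP- replicate 1, 6 were called lower in iPS cells and 1 higher, beside 2.81% and 4.23% of all genes, and the median difference was -0.46. Fgf5, a growth factor of the primed epiblast named after its values were seen, read 5.35, 5.23 and 4.99 in iPS cells, against 4.76, 7.01 and 7.14 in GFP- colonies and differed by -1.89 ± 0.14 in that fit (limma adjusted p = 0.00357). Pou3f1, a transcription factor of the same stage, read 7.14, 6.93 and 7.23 in iPS cells, against 6.97, 8.87 and 8.10 in GFP- colonies and differed by -1.39 ± 0.24 (limma adjusted p = 0.0275). Both genes were thus higher on the 2 GFP- arrays with a pluripotent profile than on any iPS array.

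The cassette factors had 0 calls of 4 over 6 arrays. Pou5f1 read 8.10, 8.08 and 8.14 in iPS cells, against 6.99, 7.59 and 7.32 in GFP- colonies, with all iPS arrays above all GFP- arrays, and differed by 0.81 ± 0.17 (limma adjusted p = 0.102). Klf4 read 9.31, 9.42 and 9.26 in iPS cells, against 7.64, 7.64 and 8.37 in GFP- colonies, also without overlap, and differed by 1.45 ± 0.22 (limma adjusted p = 0.0538). Both were called higher without GFP- replicate 1 (limma adjusted p = 0.0333 and 0.0252) and in the fit of all 12 arrays. Sox2 read 10.55, 10.48 and 10.42 in iPS cells, against 4.83, 10.07 and 10.69 in GFP- colonies (difference 1.96 ± 1.50, limma adjusted p = 0.552), where GFP- replicate 3 lay above every iPS array. Myc read 9.02, 8.83 and 8.99 in iPS cells, against 8.88, 8.88 and 7.91 in GFP- colonies (difference 0.39 ± 0.28, limma adjusted p = 0.529). These probe sets may read cassette as well as endogenous transcripts, which was not tested.

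**Figure D4:**
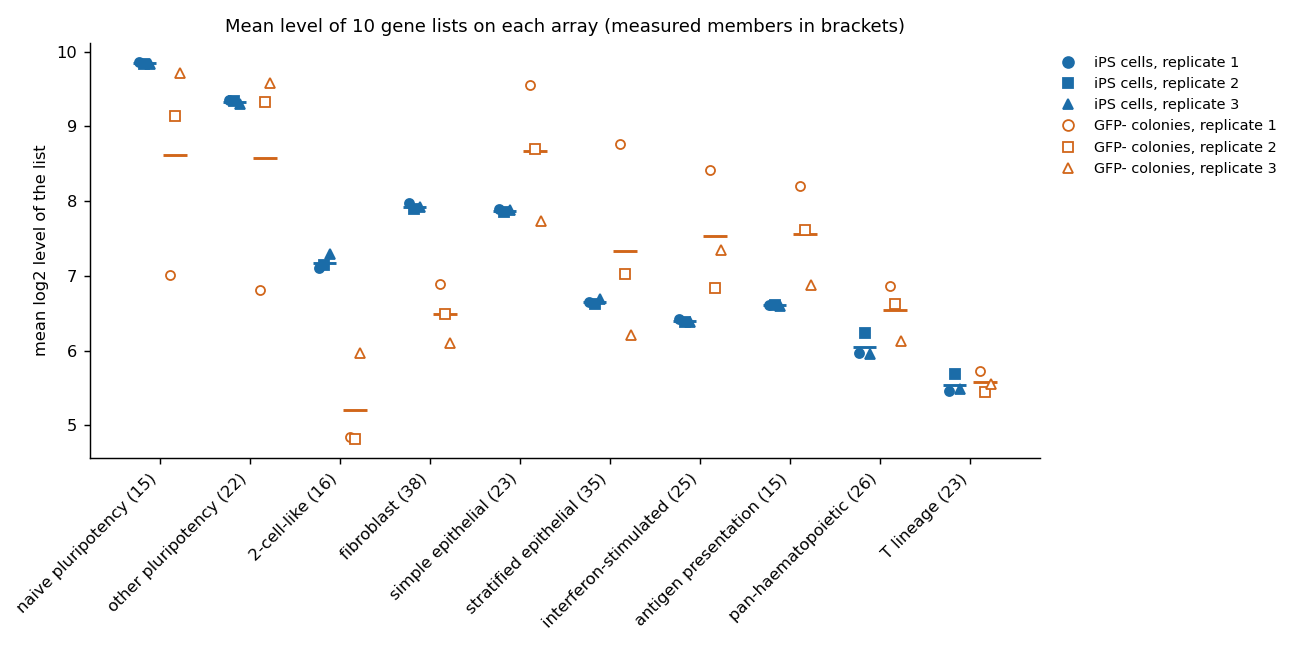
The mean log2 level of 10 gene lists is shown for each array, iPS arrays filled blue on the left and GFP- arrays open orange on the right of each pair, with bars at group means. GFP- replicate 1 (open circle) is low for both pluripotency lists and high for the epithelial and interferon lists, whereas all GFP- arrays lie below all iPS arrays for the fibroblast and 2-cell-like lists.

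Epithelial genes were not called over all 6 arrays, and the medians of both lists moved up without GFP- replicate 1. Of 23 simple epithelial genes 0 were called in limma, with a median difference of -0.65. In that list 21 differences were below 0, whereas 47.7% of all genes had a difference above 0. All iPS arrays lay below all GFP- arrays for 9 of them (11.8% of all genes) and above for 0 (15.3%). Of 35 stratified epithelial genes 0 were called, with a median of -0.37. There all iPS arrays lay below all GFP- arrays for 1 gene and above for 3. Without GFP- replicate 1 the simple epithelial median was -0.17, with 3 genes called lower, and the stratified median was 0.13, above 0, with 2 genes called higher. Of all genes, 2.81% were called lower and 4.23% higher in that fit. Krt8, a keratin of simple epithelia, read 8.74, 8.70 and 8.57 in iPS cells, against 12.54, 11.55 and 7.96 in GFP- colonies (difference -2.01 ± 1.13, limma adjusted p = 0.43). GFP- replicates 1 and 2 lay above the iPS arrays and GFP- replicate 3 below them. Without GFP- replicate 3 Krt8 was called lower (difference -3.38, limma adjusted p = 0.0193). Without GFP- replicate 1 it was not (difference -1.08, limma adjusted p = 0.536). Krt6a, a keratin of stressed and hair-follicle epidermis, read 4.19, 4.32 and 3.85 in iPS cells, against 11.91, 5.22 and 4.09 in GFP- colonies (difference -2.95 ± 1.98, limma adjusted p = 0.497). The E-cadherin gene Cdh1 read 11.38, 11.40 and 11.41 in iPS cells, against 12.73, 11.91 and 11.21 in GFP- colonies (difference -0.56 ± 0.36, limma adjusted p = 0.49), and Epcam, an epithelial adhesion gene that pluripotent cells share, read 9.13, 9.10 and 9.09 in iPS cells, against 9.90, 9.37 and 9.06 in GFP- colonies (difference -0.34 ± 0.22, limma adjusted p = 0.485).

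Genes of the T lineage, which were high on the leukemia arrays, were not called over all 6 arrays either. Of 23 T lineage genes 0 were called in limma, with a median difference of 0.00, and the list mean was 5.55 ± 0.13 in iPS cells and 5.58 ± 0.14 in GFP- colonies (SD, n = 3 each), against 9.47 to 9.52 in leukemia. Cd3e, a chain of the T cell receptor complex, read 6.43, 6.85 and 6.63 in iPS cells, against 9.83, 6.13 and 6.04 in GFP- colonies (difference -0.70 ± 1.02, limma adjusted p = 0.758), with GFP- replicate 1 far above the other 5 arrays. Ptprc, the pan-leukocyte phosphatase CD45, read 5.24, 5.70 and 5.28 in iPS cells, against 8.37, 6.43 and 5.26 in GFP- colonies (difference -1.28 ± 0.75, limma adjusted p = 0.446). Notch1 itself read 8.59, 8.66 and 8.60 in iPS cells, against 8.67, 8.64 and 8.68 in GFP- colonies (difference -0.05 ± 0.09, limma adjusted p = 0.833), and it was tight in both groups. The NOTCH1 target Ptcra encodes the invariant chain of the pre-T receptor and read 6.32, 6.40 and 6.39 in iPS cells, against 6.39, 6.46 and 6.14 in GFP- colonies (difference 0.04 ± 0.12, limma adjusted p = 0.899).

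A larger share of X-linked than of autosomal genes was called lower in iPS cells, a count taken after the values were seen and not tested. Of 899 X-linked genes 12 fell (1.33%), against 34 of 21065 autosomal genes (0.161%), and no autosome exceeded 0.462%. The X-linked genes that fell were Acsl4, Chm, Dock11, Enox2, Hmgn5, Jade3, Med12, Med14, Rlim, Septin6, Ssxb6 and Tbl1x. Rhox13, Tex13b and Tspan6 were the 3 that rose.

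Rlim encodes the X-linked ubiquitin ligase that promotes Xist expression in mouse, and it read 10.06, 10.08 and 10.02 in iPS cells, against 10.99, 11.31 and 11.33 in GFP- colonies, a difference of -1.16 ± 0.13 (limma adjusted p = 0.0268). Med12 encodes a Mediator subunit and read 8.54, 8.54 and 8.67 in iPS cells, against 9.54, 9.56 and 9.67 in GFP- colonies, a difference of -1.01 ± 0.10 (limma adjusted p = 0.0239). Both groups were tight for both genes, GFP- replicate 1 included. Dock11, a gene for a Cdc42 exchange factor, read 6.92, 6.74 and 6.77 in iPS cells, against 8.64, 8.14 and 7.92 in GFP- colonies, a difference of -1.42 ± 0.20 (limma adjusted p = 0.0461). Enox2, which encodes a cell surface NADH oxidase, read 6.53, 6.62 and 6.62 in iPS cells, against 8.24, 7.75 and 8.03 in GFP- colonies, a difference of -1.42 ± 0.15 (limma adjusted p = 0.0257). Ssxb6, of the SSX cancer-testis family, read 3.42, 3.55 and 3.57 in iPS cells, against 4.76, 5.43 and 5.11 in GFP- colonies, a difference of -1.59 ± 0.18 (limma adjusted p = 0.0306).

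Leaving out GFP- replicate 1 raised the number of X-linked genes called lower in iPS cells to 101 (11.2%), against 513 autosomal genes (2.44%). The median of 372 X-linked genes with a mean level of at least 6, each relative to its mean over 12 arrays, was -0.05, -0.05 and -0.04 in iPS cells, against -0.11, 0.22 and 0.49 in GFP- colonies. On the same measure, autosome medians lay between 0.03 and 0.10 on iPS arrays and between -0.09 and 0.05 on GFP- replicate 1. On GFP- replicates 2 and 3 they lay between -0.09 and 0.02. GFP- replicates 2 and 3 thus had a higher X-linked level than the iPS arrays and than their own autosomes. On GFP- replicate 1, as on the iPS arrays, the X-linked median lay below every autosome. GFP- replicate 1 was also below every iPS array on each autosome except chromosome 1. Uty, a Y-linked histone demethylase gene, read 6.68, 6.69 and 6.75 in iPS cells, against 7.83, 4.28 and 3.99 in GFP- colonies, with 4.63, 4.36 and 4.57 in leukemia. Kdm5d, another Y-linked demethylase gene, read 4.46, 4.24 and 4.16 in iPS cells, against 6.95, 4.39 and 3.73 in GFP- colonies. For Uty, as for Eif2s3y, GFP- replicates 2 and 3 lay below every iPS array, whereas for Kdm5d GFP- replicate 2 lay among them. Xist, a noncoding RNA expressed from the inactive X chromosome, read 7.54, 7.82 and 7.57 in iPS cells, against 7.84, 9.48 and 6.39 in GFP- colonies, with 11.45, 11.62 and 11.53 in leukemia. The labels give no sex, and the part of the sex chromosomes that the cells of each array carried in the X-linked differences was not tested.

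**Figure D5:**
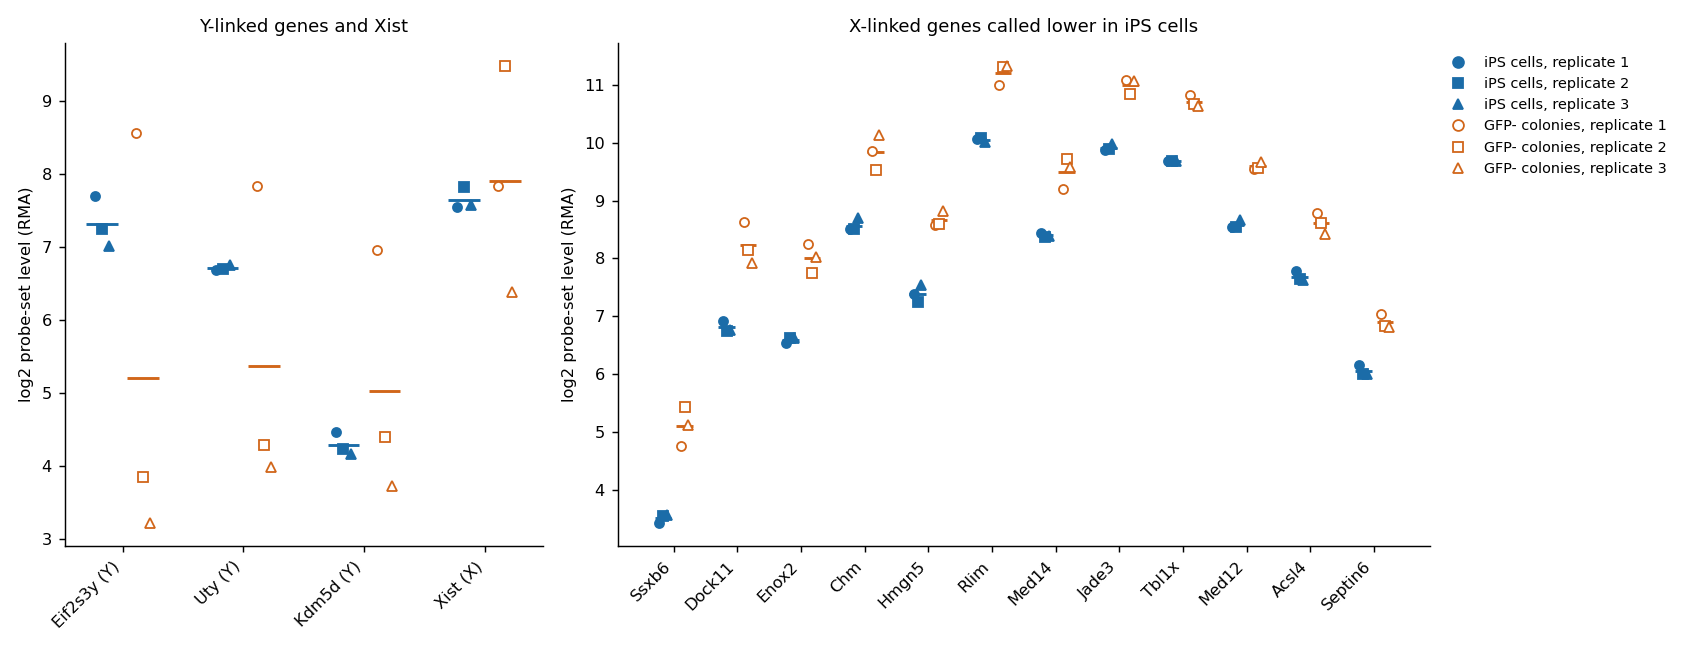
The left panel shows 3 Y-linked genes and Xist and the right panel the 12 X-linked genes called lower in iPS cells, with the log2 level on the y axis, filled blue symbols for iPS arrays, open orange symbols for GFP- arrays and bars at group means. On the left the GFP- arrays split by replicate, and on the right all 3 GFP- arrays lie above all iPS arrays, as the groups did not overlap for any called gene.

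The remaining gene groups had 0 members called in limma over 6 arrays, although some medians lay away from 0. All 25 measured proliferation genes had differences above 0, beside 47.7% of all genes, with a median of 0.53. Of these, 12 had all iPS arrays above all GFP- arrays (15.3% of all genes). The median was 0.13 without GFP- replicate 1. Of 22 respiratory chain genes 13 had all iPS arrays above all GFP- arrays (15.3% of all genes), with a median of 0.26. Cholesterol synthesis and uptake genes were on balance lower in iPS cells: 14 of 15 differences were below 0, 7 genes had all iPS arrays below all GFP- arrays (11.8% of all genes), and the median was -0.71. The median was -0.38 in the fit without GFP- replicate 1, where 5 of these genes were called lower. Lists of mesoderm, neural, germline, endothelial, contractile, B cell, erythroid, macrophage and granulocyte, pan-haematopoietic, Notch, Hox, Dlk1-Dio3, DNA methylation, Polycomb, cell cycle inhibitor, glycolysis and housekeeping genes likewise had 0 members called. In the fit without GFP- replicate 1, each of these lists had at most 4 members called higher (4 contractile, 3 Hox) and at most 3 called lower (3 of DNA methylation). Of all genes, 4.23% were called higher and 2.81% lower in that fit.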

How the data were processed

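Values are the log2 levels of each probe set that the authors deposited. They were computed by RMA according to the submitters' processing notes. Which RMA software and which filters were used is not given in the sources used here. RMA as usually run includes quantile normalization, which would hide a shift of most genes. The table held 41345 probe sets, 0 missing values and 0 identical arrays. Those annotated to more than 1 symbol (1814) or to no symbol (16010) were dropped, and genes with several probe sets (1082) kept the one with the highest mean over 12 arrays. RefSeq (GRCm38.p6) held 21994 of the 22180 genes.

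The 6 arrays were fitted by group in limma 3.58.1 (R 4.3.3) with empirical Bayes moderation. The threshold for a call was a Benjamini-Hochberg adjusted p under 0.05, taken over all genes. Differences are iPS minus GFP-, log2 ± SE. Lists are described by counts and medians, with no set test. The fit was also run on simulated data, but no outcome is given here and no call rests on it. Named were the 10 largest called increases and decreases (no clone, predicted, olfactory, vomeronasal or small RNA names), the 2 largest called members of each of 39 lists, and 22 genes named whether called or not, such as Nanog, Krt8 and Notch1. The members, lists and rule were chosen with earlier results of these data known. Alternatives were the fit of all 12 arrays, the replicate block, array weights, a trend with robust prior, cyclic loess, a filter on low values, the mean of probe sets and leaving out each array. The labels do not say whether the iPS and GFP- replicate numbers pair arrays, and the main fit did not pair them.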

Additional observations from a re-analysis of the deposited data

How the results depend on the processing

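The number of calls depended on the arrays and on the estimate of the spread. The 31 called genes that the naming rule gave kept their direction, but most alternatives could not have changed it. As the groups of called genes did not overlap, leaving out or reweighting arrays could not reverse a direction. The 12-array, replicate block, trend and filter fits return the same differences. Only cyclic loess and the mean of probe sets could have reversed one, and neither did. Of these 31 calls, limma gave 30 in a fit of all 12 arrays, 31 with array weights, 22 with an intensity trend and robust prior, 29 after cyclic loess, 30 of 30 after a filter at a mean of 6, 28 with the mean of probe sets, and 31, 8 and 30 without GFP- replicate 1, 2 or 3. The 190 calls of the 6 arrays became 943 in the fit of all 12 arrays, 3525 with array weights (weight 0.146 for GFP- replicate 1), 123 with the trend and robust prior, and between 0 and 1562 when each array was left out. Left out of the fit of all 12 arrays, an alternative added after the data were seen, single arrays gave 251 to 1755. Calls of at least 2-fold numbered 136, with 327 in the fit of all 12 arrays, 810 with array weights and 0 to 491 when each array was left out. Called list members numbered 26, with 85, 228 and 0 to 130 under the same alternatives, and called named genes ranged from 0 to 35 when each array was left out. The cause of these differences was not tested.

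The replicate block, with the number in the titles as a factor, gave 0 calls in limma (2956 genes at an unadjusted p under 0.05, smallest adjusted p 0.127), and 0 of the 2-fold, list and named calls. Deviations of same-numbered arrays correlated at -0.02, 0.01 and 0.06, and 1 of the 3 iPS arrays correlated best with its own number. With 3 arrays a group this cannot tell whether same-numbered arrays share a batch or origin, and the labels do not say. Cyclic loess gave 129 higher and 62 lower, 67.5% higher, beside 75.8% without it.

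Of genes not called, some changed sign. Zfp42 was -0.85 with array weights and between -1.31 and 1.01 with an array left out. Cd3e was 0.31 with array weights and between -1.34 and 0.55 with an array left out. Ptcra was -0.050 with array weights, -0.023 after cyclic loess and between -0.056 and 0.104 with an array left out. Dppa5a ranged from -0.042 to 0.435 and Fn1 from -0.11 to 0.80 with an array left out. Signal over background was not measured, so the order of dim probe sets such as Ssxb6 is limited, and 3 arrays a group limit the precision.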

Other observations

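Values that passed only without GFP- replicate 1, chosen after they were seen, included several imprinted and matrix genes. Peg3, a paternally expressed zinc finger gene, read 7.18, 7.27 and 7.24 in iPS cells, against 8.31 on GFP- replicate 1 and 11.66 on GFP- replicate 3, with GFP- replicate 2 higher still. The difference was -3.42 ± 0.96 over 6 arrays (limma adjusted p = 0.17) and -4.60 ± 0.13 without GFP- replicate 1 (limma adjusted p = 0.000256), so that iPS cells lay below every GFP- array and far below the pair with a pluripotent profile. On the remaining arrays it read 10.04, 10.80 and 6.43 in GFP+ colonies and 6.56, 6.23 and 6.44 in leukemia. Grb10, an imprinted gene for a growth-restraining adaptor protein, went the other way. It read 9.62, 9.60 and 9.55 in iPS cells, against 6.36, 7.82 and 7.66 in GFP- colonies and differed by 1.85 ± 0.11 without GFP- replicate 1 (limma adjusted p = 0.00218). Bgn, the proteoglycan gene biglycan, read 11.48, 11.50 and 11.56 in iPS cells, against 9.02, 7.98 and 6.10 in GFP- colonies and differed by 4.48 ± 0.50 in that fit (limma adjusted p = 0.0104). Fbln2, which encodes the matrix protein fibulin 2, read 10.40, 10.39 and 10.29 in iPS cells, against 9.31, 6.85 and 7.08 in GFP- colonies and differed by 3.40 ± 0.12 (limma adjusted p = 0.000389). Hormad1, a gene of meiotic chromosome axes, read 5.04, 4.31 and 4.65 in iPS cells, against 3.94, 7.75 and 7.86 in GFP- colonies and differed by -3.14 ± 0.21 (limma adjusted p = 0.00311).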
